A study of Mus musculus with 33 samples.

Results

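The 10 genes described here run or restrain the step from G1 into S phase: the D-type cyclins Ccnd1, Ccnd2 and Ccnd3, their kinases Cdk4 and Cdk6, the E-type cyclin Ccne1, the kinase inhibitors Cdkn1b, Cdkn1c and Cdkn2c, and Rb1, the retinoblastoma protein. A probe set was taken when the array annotation gave it exactly 1 gene symbol and that symbol was 1 of these 10. This gave 27 probe sets, of 34945 with 1 symbol, and 10 genes, of 18193. The cells were enteric neural crest cells (ENCCs), the migrating progenitors of the neurons and glia of the gut wall, sorted by YFP from embryos of C57BL/6 mice that carry Wnt1-Cre and a LoxP/R26-YFP reporter, at embryonic day 14.5. The sort takes cells of the Wnt1-Cre lineage, whatever their state at the time. The ENCCs of 1 gut were shared between 2 fibronectin-coated wells. GDNF-treated wells received 50 ng/ml GDNF, a ligand that acts through the receptor RET, and untreated wells received none. All ENCC wells held FGF and EGF at 20 ng/ml with N2 and B27, so both arms were given growth factors throughout. Whole guts of wild-type C57BL/6 embryos of the same age, taken from the duodenum to the anus, were the third group. Whole guts carried no reporter and were neither sorted nor cultured, so cell type, sorting and culture cannot be told apart in a comparison with them.

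There were 13 arrays of GDNF-treated ENCCs, 12 of untreated ENCCs and 8 of whole gut. With the numbers in the titles read as gut numbers, the ENCC arrays read 18 RNAs from 9 guts. Some RNAs were read in both of the batches that the titles name. Whole guts were read only in batch 2. Each value is a score: an array's probe sets are ranked and placed on a normal curve, so 0 is the middle of an array. A score carries no absolute level and gives no fold change, and a score does not say which of a pair of genes has more RNA. Because probe sets appear scaled on ENCC arrays, a difference near 1 between ENCC wells is as wide as the typical SD among such arrays. The same RNA read in both batches correlated at 0.117 to 0.325 over probe sets, with the lowest value for the untreated well of gut 3, whose batch 1 array correlated at 0.388 with the batch 2 array of another untreated RNA. The 8 whole guts, all read in batch 2, correlated with each other at 0.902 to 0.952. These ranges are not alike, since the repeats cross batches and probe sets appear centred on the ENCC arrays. The p-values measure the spread between these samples: litters, any pooling of embryos for a whole gut RNA, and the time in culture are not stated in the labels.

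In G1, mitogens raise the D-type cyclins, which bind Cdk4 or Cdk6 and phosphorylate Rb1. Phosphorylated Rb1 lets go of E2F factors, which switch on Ccne1 and genes of DNA replication, and cyclin E with Cdk2 then drives entry into S phase. Cdkn2c belongs to the INK4 inhibitors, which bind Cdk4 and Cdk6, while Cdkn1b and Cdkn1c belong to the Cip/Kip inhibitors, which bind cyclin-kinase complexes more widely. Progenitors that leave the cell cycle to become neurons often lose D-type cyclins and gain inhibitors. In a well of mixed cells, fewer cells of a type and less RNA per cell cannot be told apart.

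Since several of these genes moved together between wells, the DNA ahead of their start sites was read from the RefSeq promoter table (GRCm38.p6), which held 8 promoters of 6 of the genes: Cdk4, Cdk6, Ccne1, Ccnd3, Cdkn1b and Cdkn2c. Of these, Cdk6 and Ccne1 are among the genes that fell; Ccnd1, Ccnd2, Cdkn1c and Rb1 were not searched. The letters searched on both strands, in the 250 bases before each start, were CACGTG, the E-box that MYC and related factors bind, and the E2F letters TTTCCCGC, TTTCGCGC, TTTGCCGC and TTTGGCGC. CACGTG reads the same on both strands. It stood 4 times ahead of Cdk4, starting 172, 118, 98 and 11 bases before the start site. It stood once ahead of a start site of Cdk6, 220 bases before it. That Cdk6 promoter lies inside the span of the gene, chr5:3341004-3531008, and the bases ahead of the span were not searched. Of 32851 promoters in the table, 6.02% held CACGTG at least once and 0.0213%, or 7 promoters, held it 4 times or more. The cutoff of 4 is the count seen ahead of Cdk4, so this share describes that promoter and is no test. The E2F letters stood in 1.86% of all promoters and in none of these 8, a number too small to show a difference from that share. The kinase promoters that hold CACGTG are shown because they differ in this count, with CACGTG in capitals, at chr10:127063285-127063534 for Cdk4 and at chr5:3343643-3343892 for Cdk6, both on the plus strand of GRCm38.p6.
Cdk4: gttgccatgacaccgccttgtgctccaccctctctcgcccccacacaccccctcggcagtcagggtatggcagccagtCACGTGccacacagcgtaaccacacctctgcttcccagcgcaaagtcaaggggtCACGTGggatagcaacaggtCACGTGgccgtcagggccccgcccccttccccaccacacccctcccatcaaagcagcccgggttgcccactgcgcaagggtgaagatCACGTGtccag
Cdk6: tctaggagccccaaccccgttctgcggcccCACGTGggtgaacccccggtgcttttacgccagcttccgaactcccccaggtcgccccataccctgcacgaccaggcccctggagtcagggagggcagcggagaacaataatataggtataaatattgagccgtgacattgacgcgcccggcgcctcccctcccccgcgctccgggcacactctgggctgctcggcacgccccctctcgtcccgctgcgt
A match is a description of these letters and not a binding site. Any relation of the letters to the differences between wells was not tested.

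GDNF-treated wells had lower scores than untreated wells of the same gut for 6 of the 10 genes. Ccnd1, Ccnd2, Cdk6, Ccne1, Cdkn1c and Rb1 fell, so cyclins, a kinase, an inhibitor and the retinoblastoma gene moved the same way. Ccnd3, Cdk4, Cdkn1b and Cdkn2c did not pass the test, and no member rose. The test was limma on the 9 within-gut differences, with Benjamini-Hochberg adjustment over 18193 genes and a threshold of 0.05. By the same test 13.2% of all genes were lower, 18.3% were higher and 31.5% changed in either direction. The members were chosen with earlier results of these data known, so their count beside these shares is a description and no test. The median difference was -1.01 over the 10 members and 0.01 over all genes. Probe sets of a gene read the same RNA and are no replicates. Over single probe sets, 19 of 27 fell and none rose, against 13.2% of all probe sets lower and 30.1% changed, and 25 of the 27 differences were below 0.

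**Figure D1:**
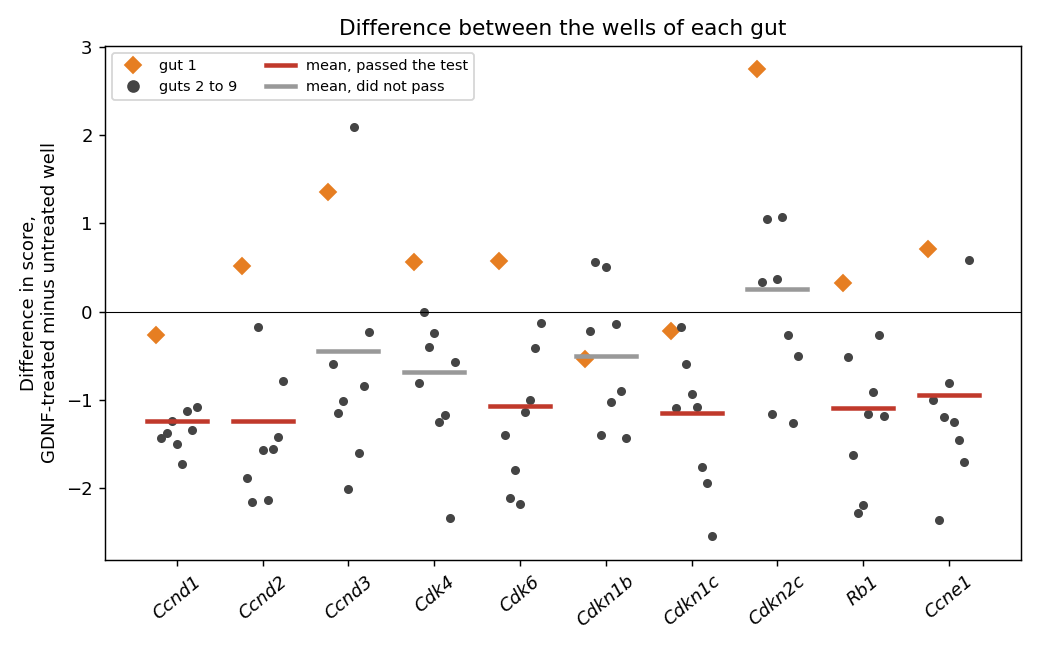
Difference in score between the GDNF-treated and the untreated well of each gut (y axis) for the 10 genes (x axis), 1 point per gut, with gut 1 as a diamond and the mean over 9 guts as a bar. All 9 points lie below 0 for Ccnd1 and Cdkn1c, and gut 1 has the highest difference in 7 of the 10 genes.

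Ccnd1, cyclin D1, lies at chr7:144929931-144939831. Its scores in batch 1 ran from -1.58 through a median of -0.87 to 0.03 in 9 GDNF-treated wells, and from -1.17 through 0.82 to 1.21 in 8 untreated wells. The groups overlapped only through the untreated well of gut 1, at -1.17; the other untreated wells ran from 0.37 to 1.21. The within-gut difference was -0.27 in gut 1, -1.44 in gut 2, -1.38 in gut 3, -1.24 in gut 4, -1.50 in gut 5, -1.73 in gut 6, -1.13 in gut 7, -1.34 in gut 8 and -1.08 in gut 9. Every gut was thus below 0, and 8 of the 9 lay close together while gut 1 was the smallest. The mean difference was -1.24 ± 0.41 (SD, n = 9, limma adjusted p = 4.9e-04). A difference below 0 in all guts was found for 6.14% of all genes.

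The 3 probe sets of Ccnd1 fell by 1.41 (1448698_at), 1.33 (1417419_at) and 0.97 (1417420_at), each below 0 in 9 of 9 guts. They differed in how well they repeated between batches. The 7 RNAs read in both batches correlated at 0.95 for 1448698_at and 0.90 for 1417419_at, against 0.12 for 1417420_at. In batch 2 alone, 1417420_at averaged 0.24 ± 0.26 in GDNF-treated and 0.19 ± 1.17 in untreated ENCCs (SD, n = 4 each), while 1448698_at averaged -0.75 ± 0.78 and 0.94 ± 0.78 in the same wells.

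Ccnd2, cyclin D2, at chr6:127125162-127152188, fell as well. In batch 1 it ran from -1.81 through -0.49 to 0.42 in GDNF-treated wells and from -1.01 through 0.83 to 1.30 in untreated wells, and the groups overlapped. The within-gut differences ran from -2.16 in gut 3 through a median of -1.56 to 0.52 in gut 1. Gut 1 was the only gut above 0, and its untreated well scored -1.01 where the other 7 untreated wells of batch 1 ran from 0.41 to 1.30. The mean was -1.24 ± 0.92 (SD, n = 9, limma adjusted p = 0.00502). All 7 probe sets of Ccnd2 fell, with differences from -1.41 to -0.89 and with 7 or 8 of 9 guts below 0. The smallest difference belonged to 1448229_s_at, whose RNAs correlated at -0.18 between batches.

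Ccnd3, cyclin D3, at chr17:47505051-47599689, differed between probe sets. The gene mean differed by -0.45 ± 1.35 (SD, n = 9), with 7 of 9 guts below 0, and did not pass the test (limma adjusted p = 0.423). The probe set 1415907_at, whose RNAs correlated at 0.93 between batches, fell by 1.36 with 8 of 9 guts below 0 (adjusted p = 0.00154 over all probe sets). In batch 1 it ran from -1.47 to 0.29 in GDNF-treated and from -1.57 to 1.31 in untreated wells. The other probe sets repeated less well, at correlations of 0.24 (1438805_at) and 0.20 (1444323_at), and differed by 0.14 and -0.12. For 1444323_at the SD over guts was 3.28, against 0.62 for 1415907_at. The highest within-gut difference of the gene mean, 2.09, was in gut 6, and gut 1 was also above 0 at 1.36.

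Of the kinases, Cdk6 fell and Cdk4 did not pass. Cdk6, at chr5:3341004-3531008, ran in batch 1 from -1.41 through -0.39 to 1.04 in GDNF-treated wells and from -0.01 through 0.86 to 2.37 in untreated wells. Its within-gut differences ran from -2.18 in gut 5 through -1.14 to 0.57 in gut 1, and 8 of 9 guts were below 0. The mean was -1.07 ± 0.94 (SD, n = 9, limma adjusted p = 0.0131). All 3 probe sets of Cdk6 fell, but only 1435338_at repeated between batches, at a correlation of 0.91; the others gave -0.30 and -0.33. Taken by batch, the gene differed by -1.26 in batch 1 (8 guts) and by -0.54 in batch 2 (4 guts).

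Cdk4, at chr10:127063535-127067288, ran in batch 1 from -1.54 through 0.11 to 1.06 in GDNF-treated wells and from -0.26 through 0.39 to 1.52 in untreated wells. The within-gut differences ran from -2.34 in gut 8 through -0.57 to 0.56 in gut 1, with 7 of 9 guts below 0. The mean was -0.69 ± 0.84 (SD, n = 9, limma adjusted p = 0.0713). Of its 3 probe sets 1 passed, 1422439_a_at at -0.91 (adjusted p = 0.0429), and the others differed by -0.55 and -0.62. Leaving out gut 1 gave -0.85, which passed (adjusted p = 0.0279).

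Ccne1, cyclin E1, at chr7:38097984-38107490, fell by a margin that depended on the guts included. In batch 1 it ran from -1.11 through -0.38 to 0.28 in GDNF-treated and from -1.40 through 0.95 to 1.33 in untreated wells. The lowest untreated score was that of gut 1. The within-gut differences ran from -2.37 in gut 3 through -1.20 to 0.71 in gut 1, with gut 9 also above 0 at 0.58. The mean was -0.95 ± 1.01 (SD, n = 9, limma adjusted p = 0.031). Leaving out gut 2, 3, 4, 5, 6, 7 or 8 ended the call, with adjusted p-values up to 0.0812, and batch 1 alone gave -0.96 with an adjusted p of 0.0655. With the hybridisation controls as a covariate the difference was -1.44. Its probe set 1441910_x_at fell by 1.04 (adjusted p = 0.0386), and 1416492_at differed by -0.86 (adjusted p = 0.0584).

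The 3 inhibitors did not move alike. Cdkn1c, a Cip/Kip inhibitor expressed from the maternal allele, lies at chr7:143458339-143461059 and has 1 probe set. It ran in batch 1 from -1.58 through -0.01 to 0.56 in GDNF-treated wells and from -0.07 through 0.42 to 1.49 in untreated wells, with overlap. Its within-gut differences ran from -2.55 in gut 9 through -1.08 to -0.17 in gut 3, so all 9 guts were below 0. The mean was -1.15 ± 0.80 (SD, n = 9, limma adjusted p = 0.00489), and the gene fell.

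Cdkn1b, the other Cip/Kip member, at chr6:134920401-134925525, differed by -0.51 ± 0.75 (SD, n = 9, limma adjusted p = 0.153). Its within-gut differences ran from -1.44 through -0.54 to 0.56, with 7 of 9 guts below 0, and neither of its 2 probe sets passed. Cdkn2c, the INK4 member, at chr4:109660876-109666756, differed by 0.26 ± 1.26 (SD, n = 9, limma adjusted p = 0.633). Its differences ran from -1.27 in gut 8 through 0.34 to 2.75 in gut 1, and 4 guts were below 0. Without gut 1 the mean was -0.05. Its 1 probe set repeated between batches at a correlation of 0.94.

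Rb1, at chr14:73192858-73325951, ran in batch 1 from -0.74 through -0.63 to 1.31 in GDNF-treated wells and from -0.95 through 0.48 to 2.02 in untreated wells. The within-gut differences ran from -2.29 in gut 4 through -1.16 to 0.32 in gut 1, with 8 of 9 guts below 0. The mean was -1.09 ± 0.87 (SD, n = 9, limma adjusted p = 0.0086), and Rb1 fell. Both probe sets fell, 1444400_at by 1.20 and 1417850_at by 0.99, although their RNAs correlated only at -0.16 and 0.47 between batches.

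**Figure D2:**
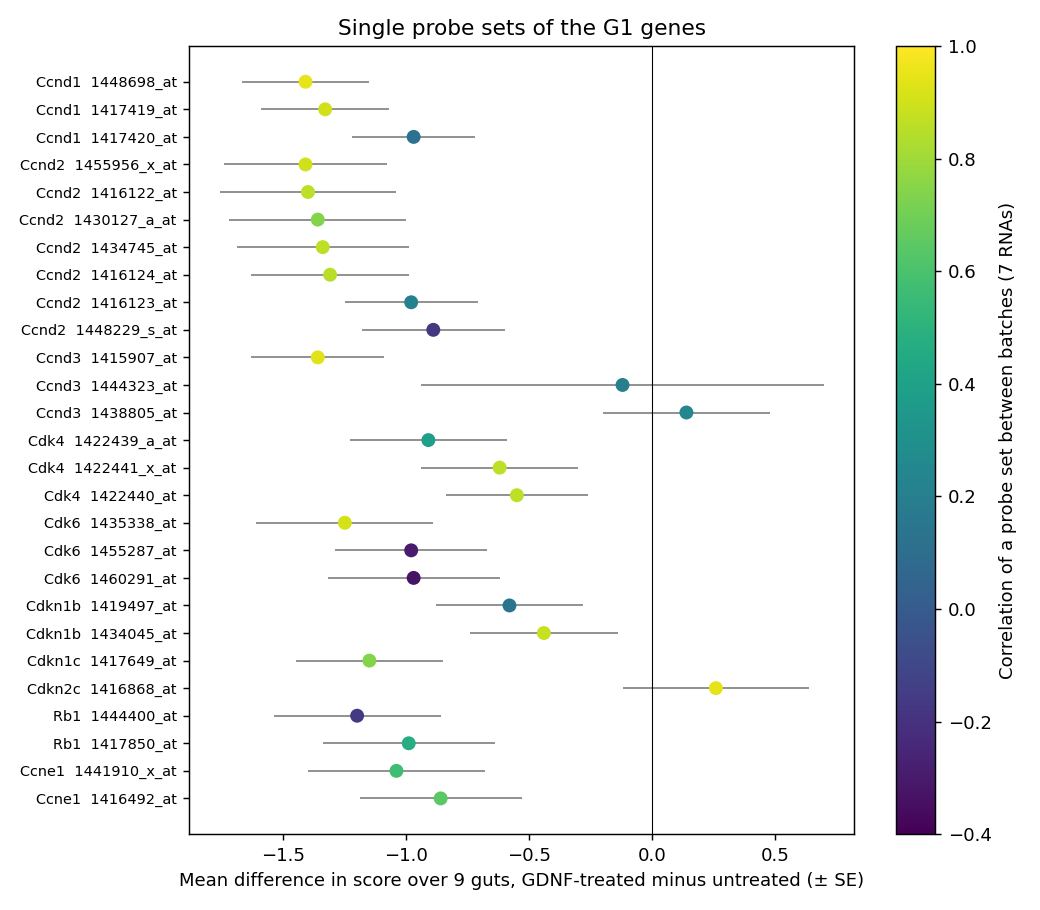
Mean difference in score between GDNF-treated and untreated wells (x axis) for each of the 27 probe sets (y axis), coloured by the correlation of the probe set over the 7 RNAs read in both batches. Bars are the SE of the limma fit, which draws the spread of a probe set toward that of all probe sets. For 1444323_at the bar is 0.82, where the SD over 9 guts was 3.28. Of the 27 points 25 lie below 0, and the probe sets of Ccnd3 lie apart.

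Taken by batch, batch 1 (8 guts) gave differences of -1.33 for Ccnd1, -1.26 for Ccnd2, -1.16 for Cdkn1c and -1.12 for Rb1, and batch 2 (4 guts, of which 3 were also read in batch 1) gave -1.07, -1.36, -1.42 and -1.0 for these genes. The signs were the same in both batches for all 10 members. In batch 1 alone 5 members fell, against 12.2% of all genes lower and 29.3% called. In batch 2 alone limma called no gene. At an unadjusted limma p under 0.05, 3 of the 10 members were lower and 0 higher. Of all 18193 genes 1338 were lower and 2178 higher at that level. In batch 2 the GDNF-treated and untreated wells of Ccnd3 and Rb1 did not overlap, which held for 4.26% of all genes in that direction and 8.84% in the other. In batch 1 the groups of every member overlapped; of all genes 6.01% did not, 4.9% higher and 1.12% lower.

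Gut 1 stood apart in the cell cycle genes and in some other lists. The mean difference over the 10 members was 0.57 in gut 1 and -1.25 to -0.76 in the other 8 guts. Over 19 measured genes of G2 and mitosis it was 2.51 in gut 1 and -1.0 to 0.21 elsewhere. Over 20 genes of DNA replication it was 1.59 in gut 1 and -1.46 to 0.60 elsewhere. Over 7 ribosomal protein genes it was -0.25 in gut 1 and -1.55 to -0.73 elsewhere. Over 13 mesenchyme and muscle markers it was 0.24 in gut 1 and -1.37 to -0.00 elsewhere. In the neuron, progenitor and glia, epithelial, and endothelial and leukocyte lists gut 1 lay within the range of the other guts. The G2 and mitosis genes averaged 1.22 in the GDNF-treated and -1.29 in the untreated well of gut 1, and that untreated score was the lowest of the 8 untreated wells of batch 1. Without gut 1, 7 members fell, against 13.9% of all genes lower and 32.5% called. Leaving out the batch 1 array of the untreated well of gut 3, whose arrays repeated least well, left 6 members lower. Leaving out its batch 2 array gave 7, with Cdk4 added at -0.81 (limma adjusted p = 0.0343). Of all 18193 genes these settings called 4967 and 5883 in either direction.

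**Figure D3:**
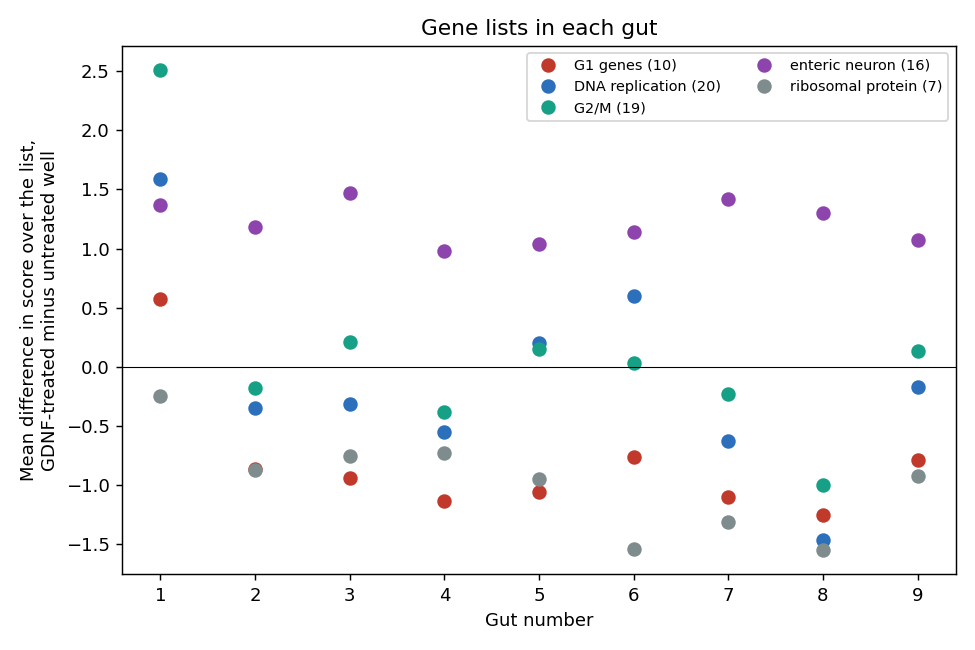
Mean difference in score over a gene list between the GDNF-treated and the untreated well (y axis) in each of the 9 guts (x axis), 1 point per list and gut. The 10 G1 genes lie between -1.25 and -0.76 in guts 2 to 9 and at 0.57 in gut 1. The G2/M, DNA replication and ribosomal protein lists are also at their highest in gut 1.

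Of the 20 DNA replication genes and the 19 G2 and mitosis genes, limma called 0 and 0 in the comparison of GDNF-treated with untreated wells, with 1 and 0 at an unadjusted p under 0.05 and 0 and 0 without pairing the wells. Their median differences were -0.08 and 0.20. Without gut 1 limma called 4 of the DNA replication genes lower and 0 of the G2 and mitosis genes, with medians of -0.30 and -0.12. Mki67, a marker of cycling cells, differed by 0.24 ± 1.21 (SD, n = 9, limma adjusted p = 0.663), and Top2a, a topoisomerase of dividing cells, by 0.26 ± 0.69 (adjusted p = 0.476). Whether the 10 members differed from these lists was not tested.

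Other lists moved beside the members in the same wells, where 18.3% of all genes were higher and 13.2% lower. Of 16 enteric neuron markers 12 rose, and their mean difference was 1.22 and above 0 in 9 of 9 guts; their mean score ran in batch 1 from -0.14 to 0.75 in GDNF-treated wells and from -1.50 to -0.49 in untreated wells. Of 7 measured ribosomal protein genes 6 fell, with a mean difference of -0.98 that was below 0 in 9 of 9 guts. Of 13 mesenchyme and muscle markers 4 fell, with a mean difference of -0.57, and in batch 1 their mean score ran from -0.88 to 0.23 in GDNF-treated wells and from -0.22 to 0.81 in untreated wells. Of 11 measured progenitor and glia markers 2 rose and 1 fell; of 13 epithelial markers 1 rose, and of 12 endothelial and leukocyte markers 1 rose, Pecam1 (difference 1.34, limma adjusted p = 0.00203). The hybridisation control probe sets, which measure spiked material and not the cells, differed by -0.72 ± 0.99 (SD, n = 9) and were below 0 in 6 of 9 guts. With their difference as a covariate the same number of members, 6, fell, and 4592 of all 18193 genes were called in either direction. In that fit 7 of the 13 mesenchyme and muscle markers fell with a median of -0.97, against -0.51 without the covariate. Of the 7 ribosomal protein genes 5 fell with a median of -1.44, against -0.95. The part of the neuron, ribosomal and mesenchyme lists in the members' differences was not tested.

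Of 30 other genes of the passage from G1 to S phase, 3 rose and 5 fell. Of all genes 18.3% were higher, 13.2% lower and 31.5% called. The median difference of the 30 was -0.12, against 0.01 over all genes. These included kinase inhibitors, of which 3 fell and 1 rose. Cdkn2b, an INK4 inhibitor, fell by 1.48 (SD 0.84, adjusted p = 0.00109), and Cdkn1a, the p53-induced Cip/Kip inhibitor, fell by 1.44 (SD 0.50, adjusted p = 2.7e-04), both in 9 of 9 guts. Cdkn2a, which encodes an INK4 inhibitor and ARF, fell by 1.20 (SD 0.99, adjusted p = 0.00834) in 8 of 9 guts. Cdkn2d, the remaining INK4 inhibitor, rose by 1.74 ± 0.39 (SD, n = 9, limma adjusted p = 6.6e-05), in 9 of 9 guts. Cdkn2d and the member Cdkn2c both bind Cdk4 and Cdk6, and Cdkn2c, at 0.26, did not pass.

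Tfdp1, the partner of E2F factors, fell by 1.14 (SD 0.95, adjusted p = 0.00942) in 8 of 9 guts. Skp1, a subunit of the SCF ubiquitin ligase, rose by 0.99 (SD 0.96, adjusted p = 0.0214) in 8 of 9 guts, with adjusted p-values up to 0.0573 when 1 gut was left out. The remaining genes that passed are named because they complete the count: Cul1, the scaffold of the same ligase, rose by 0.97 (adjusted p = 0.0456) but differed by -0.45 in batch 2, with adjusted p-values up to 0.113 when 1 gut was left out, and Rbl2, a relative of Rb1, fell by 0.80 (adjusted p = 0.0177). With the hybridisation controls as a covariate Skp1 (adjusted p = 0.111) and Rbl2 (-0.61, adjusted p = 0.148) did not pass, and Cul1 was at 1.55.

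**Figure D4:**
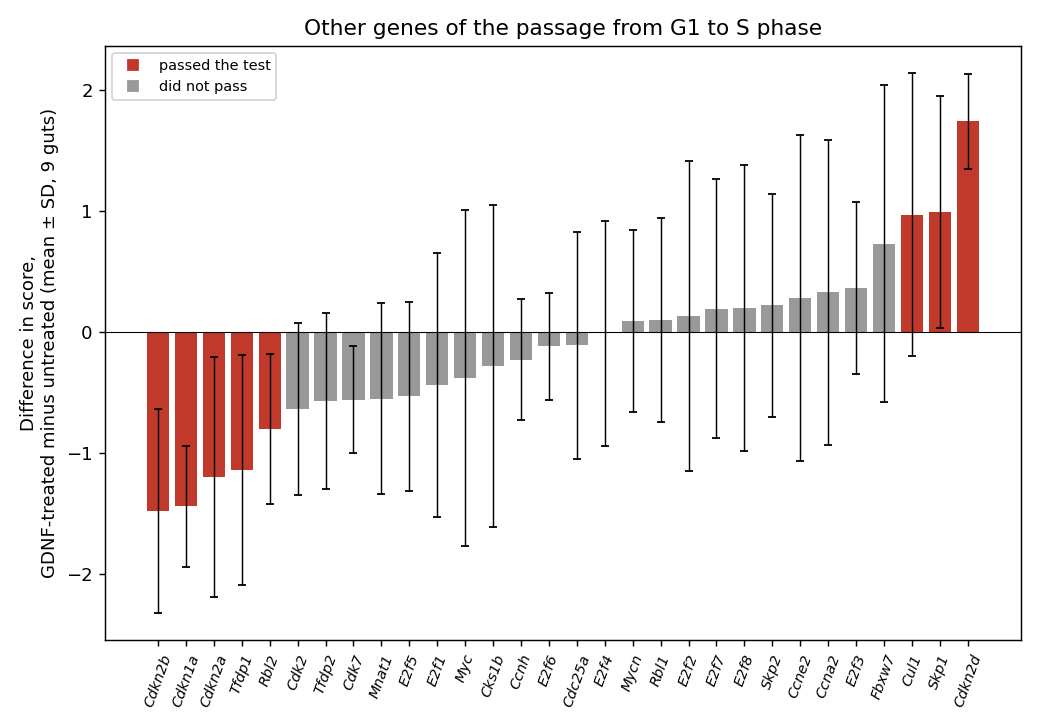
Mean difference in score between GDNF-treated and untreated wells (y axis, error bars are SD over 9 guts) for 30 other genes of the passage from G1 to S phase (x axis), with those that passed the test in red. Cdkn2b, Cdkn1a and Cdkn2a lie at the low end and Cdkn2d at the high end.

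The comparison with whole gut places the same genes against the tissue the cells came from. It used batch 2 only, with 4 wells of each ENCC group and 8 whole guts, and GDNF-treated and untreated ENCCs were set against the same guts. The ENCC wells varied more than the whole guts. In data simulated with these spreads the fit with 1 common spread called 704 and 724 of 18193 genes without a change, against 41 and 26 when each group had its own spread; calls of both fits are therefore given. Markers of the labelled cells were higher in ENCCs. Of 11 measured progenitor and glia markers 9 were higher in GDNF-treated and 9 in untreated ENCCs (9 and 7 with own spreads). The shares of all genes higher were 25.1% and 19.8% (16% and 9.01% with own spreads). Of the fixed markers, Ret, Sox10, Elavl4, Epcam, Pdgfra and Pecam1 passed in both ENCC groups with either spread. Ret, the GDNF receptor, was higher than in whole gut by 2.61 in GDNF-treated and by 1.80 in untreated ENCCs, and Sox10, a crest transcription factor, by 1.55 and 1.66. Elavl4, a neuronal gene, was higher by 2.70 and 2.49. Epcam, an epithelial marker, differed by -2.36 and -2.06, Pdgfra, a mesenchymal marker, by -2.19 and -1.06, and Pecam1, an endothelial marker, by -1.61 and -3.05. Acta2, a muscle marker, differed by -1.27 and -0.68, Ptprc, a leukocyte marker, by -0.71 and -0.91, and Top2a by -0.81 and -1.40. With own spreads Acta2 did not pass in untreated ENCCs (limma adjusted p = 0.161), nor Top2a in GDNF-treated ENCCs (adjusted p = 0.109). Ptprc passed in neither (adjusted p = 0.117 and 0.15). Scores have no true 0, so it cannot be said which markers were absent from a sample.

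**Figure D5:**
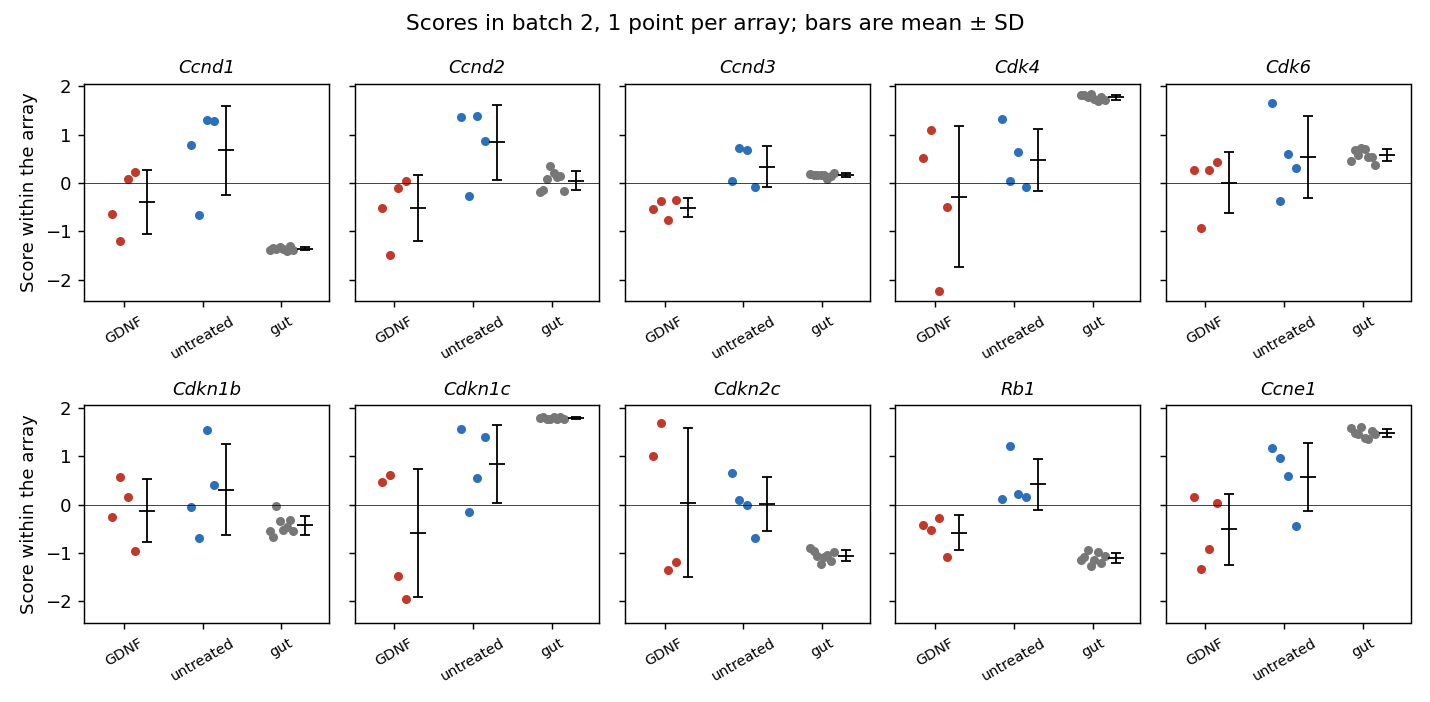
Scores of the 10 genes (y axis) in batch 2, 1 point per array, in GDNF-treated ENCCs, untreated ENCCs and whole gut (x axis), with the mean and SD beside each group. Whole guts lie close together; Ccnd1 is below both ENCC groups in whole gut, and Cdk4, Cdkn1c and Ccne1 are above both.

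Of the 10 members, 2 were higher and 5 lower in GDNF-treated ENCCs than in whole gut, against 25.1% of all genes higher, 26% lower and 51% called. With each group's own spread 1 was higher and 4 were lower, against 16% and 15.9% of all genes and 31.9% called. In untreated ENCCs 4 members were higher and 3 lower, against 19.8% and 22.8% of all genes and 42.6% called, and with own spreads 3 were higher and 2 lower, against 9.01%, 11.7% and 20.7%. Without the untreated well of gut 3, 5 were higher and 3 lower. Over settings that left out 1 array, 7067 to 9497 of all 18193 genes were called. The median difference over members was -0.57 for GDNF-treated and 0.46 for untreated ENCCs, against -0.02 and -0.01 over all genes. By probe set, 5 of 27 were higher and 11 lower in GDNF-treated ENCCs, against 23.7% and 23.5% of all probe sets and 47.2% called, and 11 were higher and 6 lower in untreated ENCCs, against 18.6% and 19.2% and 37.8% called. With own spreads 4 were higher and 8 lower in GDNF-treated ENCCs, against 15.2% and 14.2% and 29.4% called, and 3 were higher and 3 lower in untreated ENCCs, against 8.12% and 8.91% and 17% called.

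Ccnd1 was higher in ENCCs than in whole gut, with or without GDNF. It scored -0.65, -1.20, 0.08 and 0.22 in GDNF-treated wells of guts 2, 3, 8 and 9, 0.79, -0.66, 1.30 and 1.28 in the untreated wells of these guts, and -1.40 to -1.31 in the 8 whole guts, with a median of -1.37. No ENCC well overlapped the whole guts, and gut 3 gave the lowest score in both ENCC groups. The difference from whole gut was 0.97 ± 0.22 (SE, limma adjusted p = 0.00232, and 0.00634 with own spreads) in GDNF-treated and 2.04 ± 0.29 (adjusted p = 7.1e-05, and 4.0e-04) in untreated ENCCs. In batch 2 the means of Ccnd1 thus stood in the order whole gut, GDNF-treated, untreated. Each neighbouring pair passed its test, but that of the ENCC groups used 9 guts over both batches. In batch 2 alone limma did not call the ENCC pair (adjusted p = 0.25). With the spread of the ENCC wells alone the lower pair did not pass (adjusted p = 0.0714). All 3 probe sets passed in GDNF-treated ENCCs with either spread; in untreated ENCCs 1448698_at and 1417419_at did, and 1417420_at, at 0.94, did not (adjusted p = 0.0515, and 0.131 with own spreads).

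Ccnd2 had another order. It scored -0.52, -1.48, -0.11 and 0.04 in GDNF-treated wells, 1.37, -0.26, 1.39 and 0.87 in untreated wells and -0.18 to 0.35 in whole guts, with a median of 0.10. The whole guts overlapped both ENCC groups, and their mean, 0.05, lay between -0.52 in GDNF-treated and 0.84 in untreated wells. The difference from whole gut was -0.57 ± 0.24 (SE, limma adjusted p = 0.0676) in GDNF-treated ENCCs; it was -0.25 without gut 3 and passed without gut 8 (-0.70) or gut 9 (-0.75). It was 0.79 ± 0.27 (adjusted p = 0.0272) in untreated ENCCs, and lost its call with own spreads (adjusted p = 0.307) and without the untreated well of gut 2 or 8 (0.62 and 0.61).

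Ccnd3 scored -0.54, -0.37, -0.77 and -0.36 in GDNF-treated wells, 0.04, 0.72, 0.68 and -0.08 in untreated wells and 0.08 to 0.21 in whole guts. The GDNF-treated wells lay below all whole guts, and the untreated wells lay on both sides of them. The difference from whole gut was -0.67 ± 0.11 (SE, limma adjusted p = 3.0e-04, 0.0122 with own spreads, and 0.102 with the spread of the ENCC wells alone) in GDNF-treated and 0.18 ± 0.18 (adjusted p = 0.434) in untreated ENCCs. Only 1415907_at of its probe sets was lower than whole gut in GDNF-treated ENCCs, with a difference of -2.11 (adjusted p = 2.2e-07, and 1.4e-05 with own spreads).

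Cdk4 was lower in ENCCs than in whole gut. It scored 0.51, 1.10, -2.24 and -0.49 in GDNF-treated wells, 1.32, 0.05, 0.64 and -0.08 in untreated wells and 1.70 to 1.85 in whole guts. Every ENCC well lay below every whole gut, and the ENCC groups overlapped each other. The difference was -2.05 ± 0.45 (SE, limma adjusted p = 0.0018, and 0.00159 with own spreads) in GDNF-treated and -1.29 ± 0.22 (adjusted p = 3.6e-04, and 0.00438) in untreated ENCCs. All 3 probe sets were lower in both, with either spread. Between the ENCC groups the paired difference did not pass (limma adjusted p = 0.0713).

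Cdk6 overlapped between all groups. It scored 0.26, -0.94, 0.26 and 0.44 in GDNF-treated wells, 1.66, -0.38, 0.60 and 0.30 in untreated wells and 0.38 to 0.73 in whole guts, so the ENCC wells lay among or just below the whole guts, apart from gut 2 above them without GDNF and gut 3 below them in both. The difference was -0.57 ± 0.22 (SE, limma adjusted p = 0.0449) in GDNF-treated and -0.03 ± 0.28 (adjusted p = 0.948) in untreated ENCCs. The first call was lost with own spreads (adjusted p = 0.23), without the treated well of gut 3 (-0.26) and without any single whole gut. The probe set that repeated between batches, 1435338_at, was lower in GDNF-treated ENCCs, with a difference of -1.26 (adjusted p = 0.0306 with own spreads).

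Ccne1, which E2F factors induce, was lower in ENCCs. It scored 0.17, -1.33, -0.91 and 0.04 in GDNF-treated wells, 1.17, 0.96, 0.60 and -0.43 in untreated wells and 1.36 to 1.61 in whole guts. Every ENCC well lay below every whole gut, and the ENCC groups overlapped each other. The difference was -1.99 ± 0.24 (SE, limma adjusted p = 1.6e-05, and 1.8e-04 with own spreads) in GDNF-treated ENCCs. In untreated ENCCs it was -0.91 ± 0.24 (adjusted p = 0.0074), and own spreads ended that call (adjusted p = 0.0599). Without the untreated well of gut 9 it was -0.58. The order was GDNF-treated, untreated, whole gut, and the differences of both neighbouring pairs were lost under some alternative.

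Cdkn1c was lower in ENCCs as well. It scored 0.48, 0.62, -1.47 and -1.95 in GDNF-treated wells, 1.57, -0.16, 0.56 and 1.41 in untreated wells and 1.77 to 1.82 in whole guts, so every ENCC well lay below every whole gut. The difference was -2.37 ± 0.40 (SE, limma adjusted p = 2.9e-04, and 2.4e-04 with own spreads) in GDNF-treated and -0.95 ± 0.26 (adjusted p = 0.009, and 0.0277) in untreated ENCCs. Among the GDNF-treated wells guts 2 and 3 were high and guts 8 and 9 low. Without the untreated well of gut 3 the difference of untreated ENCCs was -0.62. The order of the means was GDNF-treated, untreated, whole gut. Each neighbouring pair passed its test, but that of the ENCC groups used 9 guts over both batches. In batch 2 alone limma did not call the ENCC pair (adjusted p = 0.231), and gut 3 had the reverse order there, 0.62 treated and -0.16 untreated. With the spread of the ENCC wells alone untreated ENCCs did not pass against whole gut (adjusted p = 0.108), nor did the probe set with own spreads among all probe sets (adjusted p = 0.0524).

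Cdkn2c showed the same split of guts, which was not particular to these inhibitors, as Cdk4 showed it too. In batch 2 the G2 and mitosis genes averaged 0.62, 0.96, -1.07 and -0.62 in GDNF-treated wells of guts 2, 3, 8 and 9. In untreated wells of these guts they averaged 0.80, 0.37, -0.10 and -0.69. Cdkn2c scored 1.00, 1.70, -1.36 and -1.18 in GDNF-treated wells, 0.66, 0.10, -0.01 and -0.69 in untreated wells and -1.23 to -0.90 in whole guts. Guts 2 and 3 lay above and guts 8 and 9 within or below the whole guts among the GDNF-treated wells, while all untreated wells lay above. The difference was 1.09 ± 0.47 (SE, limma adjusted p = 0.07) in GDNF-treated and 1.06 ± 0.21 (adjusted p = 9.4e-04, and 0.0355 with own spreads) in untreated ENCCs. The first passed without gut 8 (1.56) or gut 9 (1.5), and was 0.77 without gut 2 and 0.54 without gut 3, neither of which passed. With the spread of the ENCC wells alone the second did not pass (adjusted p = 0.0601).

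Cdkn1b scored -0.26, 0.57, 0.15 and -0.95 in GDNF-treated wells, -0.04, -0.68, 1.55 and 0.40 in untreated wells and -0.67 to -0.03 in whole guts. The groups overlapped. The difference was 0.30 ± 0.23 (SE, limma adjusted p = 0.3) in GDNF-treated and 0.74 ± 0.31 (adjusted p = 0.0676) in untreated ENCCs; the second passed without gut 3, at 1.07. The first passed without gut 9, at 0.58, and was 0.07 without gut 3 (adjusted p = 0.788). The probe set 1419497_at was higher in GDNF-treated (0.81, adjusted p = 0.0277) and untreated ENCCs (adjusted p = 0.0338) with the common spread, and neither probe set passed with own spreads.

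Rb1 was higher in untreated ENCCs than in whole gut. It scored -0.41, -0.52, -0.28 and -1.09 in GDNF-treated wells, 0.11, 1.21, 0.23 and 0.15 in untreated wells and -1.27 to -0.93 in whole guts. Untreated wells lay above all whole guts, and the GDNF-treated well of gut 9 lay among them. The difference was 0.52 ± 0.15 (SE, limma adjusted p = 0.0118, lost at 0.201 with own spreads) in GDNF-treated and 1.53 ± 0.21 (adjusted p = 4.3e-05, and 0.00485) in untreated ENCCs. The probe set 1417850_at was higher by 1.41 in GDNF-treated and 2.40 in untreated ENCCs, and 1444400_at differed by -0.36 and 0.65 in these groups. The order was whole gut, GDNF-treated, untreated, and own spreads ended the call between the lower pair. The upper pair passed over 9 guts of both batches, but not in batch 2 alone (limma adjusted p = 0.292).

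Of all genes, 34.9% did not overlap between GDNF-treated ENCCs and whole gut and 27.6% between untreated ENCCs and whole gut. Among the members these were 5 (Ccnd1 above, and Ccnd3, Cdk4, Cdkn1c and Ccne1 below) and 6 (Ccnd1, Cdkn2c and Rb1 above, and Cdk4, Cdkn1c and Ccne1 below). Later cell cycle genes were lower in ENCCs. Of 20 DNA replication genes 18 were lower in GDNF-treated and 17 in untreated ENCCs (17 and 14 with own spreads). Of 19 G2 and mitosis genes 19 and 18 were lower (17 and 15). The shares of all genes lower were 26% and 22.8% (15.9% and 11.7% with own spreads). Mki67 differed by -1.64 and -1.36. All 13 epithelial markers were lower in both ENCC groups, with either spread, and the mean score of that list ran from -0.37 to 0.72 in GDNF-treated ENCCs, from -0.73 to 0.14 in untreated ENCCs and from 2.58 to 2.67 in whole guts. The part of these other cell types in the members' differences from whole gut was not tested.

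Of the 30 other G1 to S genes, 6 were higher and 20 lower in GDNF-treated ENCCs (4 and 9 with own spreads). The shares over all genes were 25.1% and 26% (16% and 15.9% with own spreads). In untreated ENCCs 5 were higher and 14 lower (3 and 5 with own spreads), against 19.8% and 22.8% of all genes (9.01% and 11.7%). In GDNF-treated ENCCs Tfdp1 was lower (difference -2.62), as was E2f2, an activating E2F factor (-1.86), while Cdkn2d was higher by 2.37 and Cdkn2a by 1.72; all 4 kept their calls with own spreads. In untreated ENCCs Cdkn2a was higher by 3.38, Cdkn2b by 2.80 and Cdkn1a by 1.85, and Ccna2, cyclin A2 of S phase, was lower (difference -1.61), again with own spreads.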

How the data were processed

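RNA of sorted ENCCs and whole guts was read on Affymetrix arrays. Per the submitters' processing notes the authors used RMA. The deposited values are scores: each array of the authors' table holds normal quantiles of ranks (largest deviation 5e-06), and probe sets appear centred and scaled within a batch on the 7 RNAs read in both, as read from the values, since no label records it. Brightness is not kept, so dim probe sets could not be left out, and precision is limited by the number of arrays.

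Of 45101 probe sets, 34945 with 1 symbol were used, and a gene's score is the mean of its probe sets. limma 3.58.1 (R 4.3.3) tested 9 within-gut differences, with guts read in both batches entering as a mean, and batch 2 ENCCs against whole guts, with Benjamini-Hochberg adjustment. Pairing rests on the protocol, which splits 1 gut over 2 wells, and on reading the numbers in the titles as gut numbers. The wells paired in this way correlated at -0.00379 to 0.278 over probe sets, 3 of 8 best with their own gut. The within-gut differences depend on that reading. Each fit was tested on simulated data with 200 changed genes; the paired one called 4 others.

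Named were all members; of 30 other G1 to S genes, the 6 largest called differences under GDNF and the 4 largest against whole gut; fixed markers; and the 2 genes nearest each member. The members and lists were chosen with earlier results of these data known. 1 item of the lists is not reported here. Alternatives covered the probe set summary, scale, eBayes, pairing, batch, hybridisation controls, spread per group and each replicate left out.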

Additional observations from a re-analysis of the deposited data

Results flagged for a closer look

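Of 60 groups of 4 to 10 values of the members, 8 had 1 value apart from the others by Dixon's criterion, which chance meets in about 1 in 20 groups. For Ccnd1 the within-gut GDNF difference of gut 1 was -0.27, against -1.73 to -1.08 in the other guts, and the untreated batch 1 well of gut 1 scored -1.17, against 0.37 to 1.21. The same well scored -1.01 for Ccnd2, against 0.41 to 1.30. For Ccnd3 the GDNF-treated batch 1 well of gut 6 scored 1.67, against -0.90 to 0.40, and whole gut 6 scored 0.08, against 0.15 to 0.21. For Cdk6 the GDNF-treated batch 2 well of gut 3 scored -0.94, against 0.26 to 0.44. For Rb1 the GDNF-treated batch 1 well of gut 2 scored 1.31, against -0.74 to -0.18, and the untreated batch 2 well of gut 3 scored 1.21, against 0.11 to 0.23.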

How the results depend on the processing

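Under GDNF, leaving out 1 gut gave 5029 to 5909 genes called, against 5725, with 5 to 7 members lower and 0 higher; Cdkn2c ran from -0.05, without gut 1, to 0.46. With no replicate block 4859 genes were called and 6 members were lower, so the pairing moved no count by over 1.5 times. Batch 2 alone, with 4 guts, called 0 genes and 0 members by limma, with 3516 genes at an unadjusted p under 0.05. Against whole gut, both planned settings and settings chosen after seeing the data moved the counts. The settings of spread were chosen after seeing the data. For GDNF-treated ENCCs the reported fit gave 2 members higher and 5 lower. Own spreads called 5805 genes and 1 member higher, and the spread of ENCC wells alone called 5057 genes with 0 members higher and 3 lower. Of the planned settings, the mean of both wells gave 4 higher and 3 lower, and the share of all genes under it is not given here. Leaving out 1 array, also planned, gave 2 to 4 higher and 4 to 6 lower, with 8634 to 9835 genes called. For untreated ENCCs, own spreads called 3761 genes and 6 probe sets of members, and the spread of ENCC wells alone 3757 genes with 2 members higher and 1 lower. Some signs turned, for members that did not pass. With the most reproducible probe set Cdkn1b went to -0.20 in GDNF-treated ENCCs, and Ccnd3 to -0.32 and Cdk6 to 0.18 in untreated ENCCs. With the mean of both wells Ccnd2 was at 0.11 and Ccnd3 at -0.24. That setting averages the treated and the untreated well of a gut, so its values lie between those of the ENCC groups. In untreated ENCCs Cdk6 ran from -0.40 to 0.28 over single arrays left out. It turned without the untreated well of gut 3 (0.28) or gut 9 (0.06). The cause of the other turns was not tested. Of 610 values for single genes under alternatives, 543 kept their direction and side of the threshold.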

Other observations

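For each member, the genes with the most similar scores over the 33 arrays were found by the root mean square difference in score. Cdk4 lay nearest to Mcm7, a subunit of the replicative helicase, at 0.35, and to Fbxo5, an inhibitor of the anaphase-promoting complex, at 0.42. Ccnd1 lay nearest to Mxra8 and Col11a1, a collagen chain, both at 0.31, and Ccnd2 to Mtap, an enzyme of methionine salvage, at 0.30 and Hacd4 at 0.34. Cdkn1c lay nearest to Limd1 at 0.37 and Rps3a1, a ribosomal protein gene, at 0.40, and Cdkn2c to Scrg1 at 0.41 and Adam12 at 0.50. Cdk6 lay nearest to Smurf2, a ubiquitin ligase, at 0.44 and Cnot6l, a deadenylase, at 0.46. Rb1 was nearest to Pon2 at 0.48 and Rrn3 at 0.49, and Ccne1 to Siva1 at 0.48 and Arhgap18 at 0.49. Cdkn1b was nearest to Eif1ax at 0.52 and Fundc2 at 0.53, and Ccnd3 to Med14 at 0.56 and Asph at 0.61. The median distance to all genes was 1.09 to 1.49. It is a likeness of scores across arrays and not of RNA levels, and it includes the difference between ENCCs and whole gut, which all arrays share.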
